A study of Mus musculus with 5 samples.

Results

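Malat1 and Neat1 are neighbouring genes for nuclear long noncoding RNAs, and their peaks of RNA polymerase II (RNAPII), of R-loops (by DRIP-seq) and of NELF-A and NELF-B, which are parts of the negative elongation factor NELF, are described here. The members are all peaks that overlap 1 of 2 windows on chromosome 19 of the mouse build mm9 by 1 bp or more. The Malat1 window runs from 5790000 to 5809000 and the Neat1 window from 5809500 to 5851000. They hold 23 of the 32456 peaks in the 4 lists, 6 in the Malat1 window and 17 in the Neat1 window. The loci were chosen by their RNAPII, NELF and DRIP peaks and scores: RNAPII has its highest score of all on Neat1. What follows is therefore a description, with no test.

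All samples were primary mammary epithelial cells from the mammary gland of virgin mice of 6 to 8 weeks and of mixed strain, with no further genotype or treatment in the labels. Cells were obtained from thoracic and inguinal glands by enzymatic digestion. The groups are RNAPII ChIP (antibody ab5408), NELF-A ChIP and NELF-B ChIP (both with homemade antibodies) and DRIP with the antibody ENH001, with 1 peak list each. The RNAPII and DRIP titles each name 2 libraries that share a list. A sample of DRIP after RNase H, an enzyme that degrades the RNA strand of R-loops, is not analysed here, and whether the DRIP peaks depend on it was not tested. No cell type marker could be checked in peak lists that name no genes.

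Malat1 RNA collects in nuclear speckles, the bodies that store splicing factors, and Neat1 RNA is the scaffold around which paraspeckles form. Neat1 is made as a short and a long isoform from the same start, and the long isoform is the one that builds paraspeckles. Malat1 RNA ends in a structure from which a small tRNA-like RNA, mascRNA, is cut off. NELF holds RNAPII paused shortly after transcription starts, and R-loops form where nascent RNA pairs back with its template. Both genes are read from higher to lower coordinates, so the high-coordinate end of each region is the upstream side. Their start sites and ends were not placed in mm9, since the RefSeq gene table used here is of another build, GRCm38.p6. The windows are taken as the loci as the rule names them. How far the peaks reach beyond the genes was therefore not determined, and "on Neat1" or "on Malat1" means within the window.

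The Malat1 promoter is shown because NELF and RNAPII share a boundary on the upstream side of this gene. It is the RefSeq sequence of GRCm38.p6, chromosome 19, minus strand, from 250 bases before to 50 bases after the transcript start. Capitals mark matches to TGACGT, the core of the cyclic AMP response element, on either strand.

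Malat1: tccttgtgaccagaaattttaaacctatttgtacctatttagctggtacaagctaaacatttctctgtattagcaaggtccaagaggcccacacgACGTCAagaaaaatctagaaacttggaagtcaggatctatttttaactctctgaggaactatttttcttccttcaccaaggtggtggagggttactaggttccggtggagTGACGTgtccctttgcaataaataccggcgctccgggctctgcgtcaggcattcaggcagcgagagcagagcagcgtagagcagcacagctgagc

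The motif stands once on each strand, beginning 155 and 45 bases before the start. Of 32851 promoters of this length in the table, 7.51% hold it on at least 1 strand. Also searched on both strands, with no match in this window, were the TATA box (TATAAA), found in 13.6% of the promoters, and the CCAAT box (CCAAT), in 37.4%. The same holds for the GC box (GGGCGG), in 35.7%, and the AP-1 site (TGACTCA), in 5.20%. The Malat1 promoter had a GC content of 47.0%, against a median of 52.7%, and held 10 CG pairs, against a median of 7. The table gave no promoter for Neat1.

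Each peak carries 1 whole number from the authors, called its score here. It has no stated unit, rises with width, and was used only to rank peaks within a list, also after division by width (score per 250 bp). Peak ends fall on a 250 bp grid. The lists hold 7718 RNAPII, 10782 NELF-A, 3925 NELF-B and 10031 DRIP peaks. Depth is unknown, no list has a replicate, and repeated sequence was not analysed.

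On Malat1, all 4 targets were present, with NELF at the upstream end of the RNAPII domain and DRIP over its body. RNAPII formed a single peak of 11750 bp from 5792501 to 5804250 with a score of 10531, rank 51 of 7718. Per 250 bp its score was 224, rank 23. Among the 74 RNAPII domains within 20% of its width it was at place 7 by score per 250 bp, so its signal was high for its width as well as in sum.

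NELF-A had a single peak on Malat1, from 5802251 to 5804250, which ended on the same base as the RNAPII peak. Its score was 259, rank 18 of 10782, and it ranked 2 among 176 NELF-A peaks of 2000 bp. NELF-B had 2 touching peaks inside it. The peak from 5802251 to 5803000 began on the same base as the NELF-A peak and scored 37, rank 81 of 3925. The peak from 5803001 to 5804000 scored 17, rank 581. Per 250 bp these scores were 12.3 and 4.25, so NELF-B was stronger in the inner of the 2 peaks. Joined, both covered 1750 of the 2000 bp under NELF-A.

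DRIP covered the part of Malat1 downstream of NELF. A peak from 5800001 to 5802750 scored 574, rank 248 of 10031, and per 250 bp 52.2, rank 102. A second peak, 250 bp away, ran from 5795001 to 5799750 and scored 480, rank 333, but per 250 bp only 25.3, rank 1100. DRIP was therefore denser in the peak next to NELF. That peak shared 500 bp with NELF-A and with the inner NELF-B peak, and the outer 1500 bp of the RNAPII domain had no DRIP peak. Neither did its 2500 bp at the low-coordinate end.

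**Figure D1:**
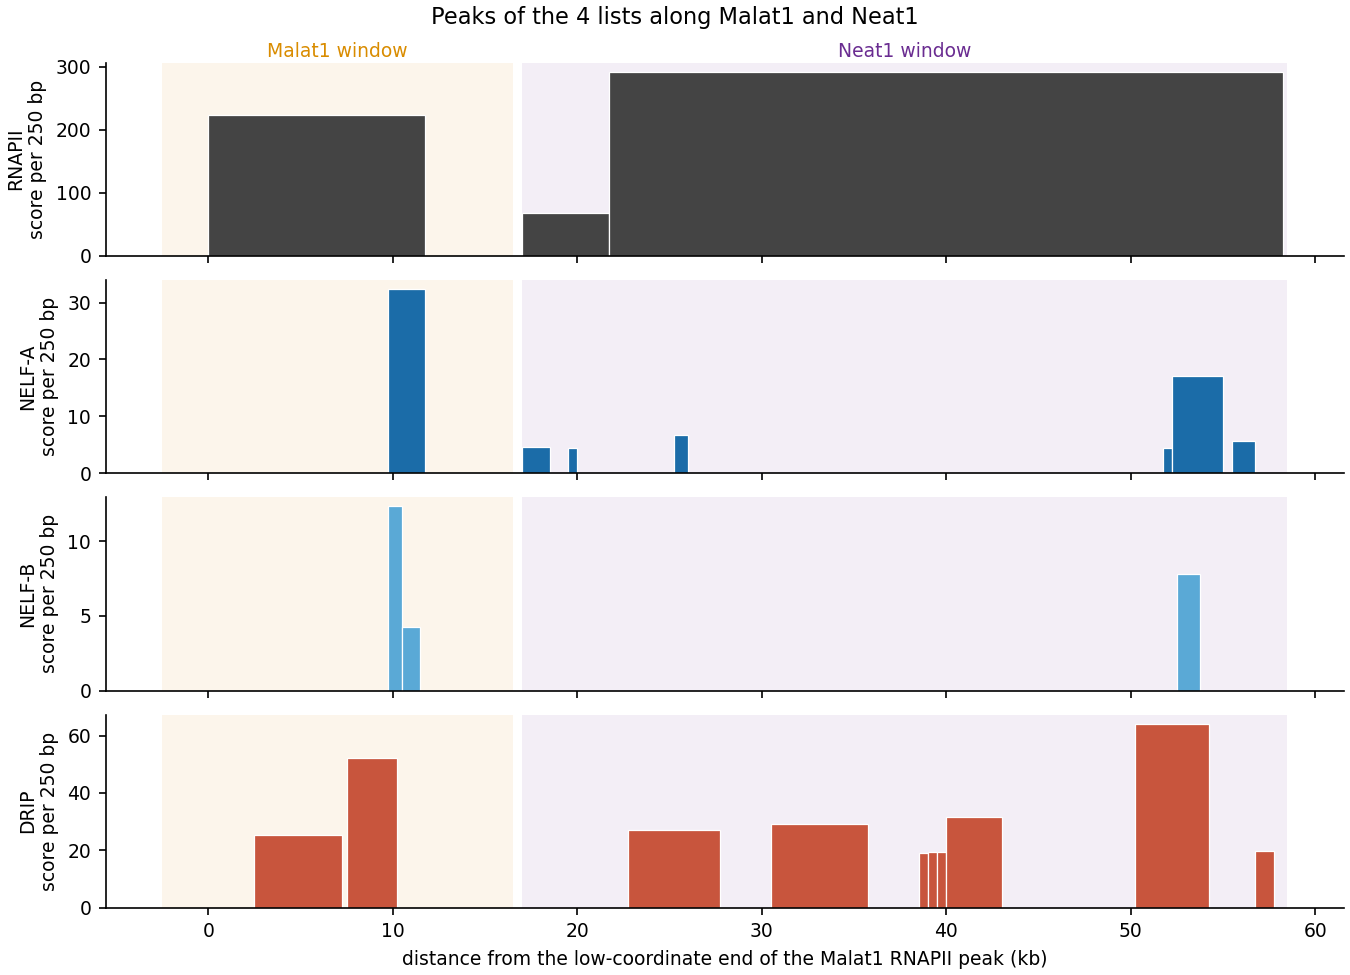
Peaks along Malat1 and Neat1: bars span each peak, and their height is the authors' score per 250 bp, on a separate axis for each list. The x axis is the distance in kb from the low-coordinate end of the Malat1 RNAPII peak, and shading marks both windows. The tallest NELF-A bar of each locus stands near the high-coordinate end of its RNAPII domain, while DRIP bars are spread along the domains.

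On Neat1, RNAPII covered 41250 bp without a gap, from 5809501 to 5850750, as 2 touching peaks of very unequal height. The peak from 5814251 to 5850750, of 36500 bp, has the highest score of the list, 42660. It is also the third widest and ranks 5 by score per 250 bp, with 292. The low-coordinate peak, from 5809501 to 5814250, is 4750 bp wide and scored 1288, rank 587. Its score per 250 bp was 67.8, close to the list median of 61.1, and 4.31-fold below that of its neighbour. The RNAPII domains of Malat1 and Neat1 were 5250 bp apart, and no list had a peak in between.

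NELF-A had 6 peaks on Neat1, grouped at both ends of the RNAPII domain. At the upstream end, the peak from 5844751 to 5847500 scored 188, rank 34 of 10782, the highest of 19 NELF-A peaks of 2750 bp. A weak peak from 5844251 to 5844750, with the lowest score of the list, 9, touched it, and another from 5848001 to 5849250 scored 28. At the downstream end, a peak from 5809501 to 5811000 began on the same base as the RNAPII domain and scored 28, rank 4539. Another 2 lay further in, from 5812001 to 5812500 with a score of 9 and from 5817751 to 5818500 with a score of 20. Between the groups, 25750 bp held no NELF-A peak. The 5 lesser peaks scored 4.50 to 6.67 per 250 bp, against 17.1 for the leading peak, a list minimum of 4.13 and a list median of 6.40.

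NELF-B had a single peak on Neat1, from 5845001 to 5846250, wholly within the leading NELF-A peak. It scored 39, rank 73 of 3925. None of the other 5 NELF-A peaks of Neat1 overlapped NELF-B. NELF-B thus lay at the upstream end of both loci. As listed, its leading peaks there ranked 73 on Neat1 and 81 on Malat1 by score. With touching peaks joined the ranks by score were 74 and 33, so the closeness by score depends on the split Malat1 peak. Per 250 bp the peaks as listed ranked 127 and 33. Rank 33 is that of the inner Malat1 peak alone, with 12.3 against 7.80 on Neat1, while the peak touching it had 4.25. The joined Malat1 peaks were not ranked per 250 bp, so this order of the loci may also depend on the split.

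DRIP formed 8 peaks on Neat1 spread along the wide RNAPII peak. The strongest, from 5842751 to 5846750, scored 1026, rank 78 of 10031, and was the highest of 39 DRIP peaks of 4000 bp. It covered the whole NELF-B peak and 2000 bp of the leading NELF-A peak. Going downstream, a stretch of 7250 bp without DRIP followed.

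Next on Neat1 came 4 touching DRIP peaks from 5831001 to 5835500. A peak of 3000 bp with a score of 381 made up most of this block, and 3 of 500 bp scored 38, 39 and 39, at or next to the list minimum of 38. Further downstream, a peak from 5823001 to 5828250 scored 611, rank 215, and a peak from 5815251 to 5820250 scored 540, rank 279. Both were wider than the leading peak, with 5250 and 5000 bp, but scored 29.1 and 27.0 per 250 bp against 64.1. The last peak, from 5849251 to 5850250 on the upstream side of NELF, scored 79. DRIP was thus densest in the peak that overlaps NELF-B and the leading NELF-A peak. In the peak from 5849251, which begins on the base after a lesser NELF-A peak ends, it was 19.75 per 250 bp. Downstream of the leading peak, DRIP was lower, but present, down to 5750 bp from the far end of the domain. The low RNAPII peak there had no DRIP.

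Every member of the other 3 lists lay wholly under RNAPII at both loci. The windows hold large RNAPII domains and were chosen for them, so nothing is read from that. All 7 NELF-A peaks overlapped RNAPII, as 54.1% of NELF-A peaks did over the genome, all 3 NELF-B peaks (77.8%), and all 10 DRIP peaks (23.1%). From the polymerase side, NELF-A lay on all 3 RNAPII peaks (72.3% of the list), NELF-B on 2 (38.2%) and DRIP on 2 (22.2%). These 3 RNAPII peaks are 4750 to 36500 bp wide, against a list median of 1000 bp, and a wider peak has more room to overlap. All 3 NELF-B peaks overlapped NELF-A (92.5%), while 2 of 7 NELF-A peaks overlapped NELF-B (32.9%). DRIP overlapped 4 of 7 NELF-A peaks (13.9%) and 2 of 3 NELF-B peaks (20.1%). In the reverse direction, 3 of 10 DRIP peaks overlapped NELF-A (15.9%) and 2 overlapped NELF-B (7.68%). These counts are small, and peaks of a locus are not independent.

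Most of the DRIP length on the loci was away from NELF, which covers a small part of either domain. NELF-A cover had a median of 14.3% over the 419 RNAPII domains of 5 kb or more. How much of the DRIP in those domains lay outside NELF was not computed, so nothing is read from this. Of the Neat1 domain, 40.0% of the bases lay under DRIP without NELF, 7.88% under both DRIP and NELF-A, 9.70% under NELF-A without DRIP, and 42.4% under RNAPII alone. Of the Malat1 domain, 59.6% lay under DRIP without NELF, 4.26% under DRIP with both NELF subunits, 12.8% under NELF without DRIP, and 23.4% under RNAPII alone. In all, DRIP covered 47.9% of the Neat1 domain and 63.8% of the Malat1 domain. NELF-A covered 17.6% and 17.0%, and NELF-B 3.03% and 14.9%. These shares depend on the peak widths as listed: with NELF-A peaks set to 500 bp around their centres, NELF-A covered 7.27% of Neat1 and 4.26% of Malat1.

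The 2 loci were set beside each other list by list. The Neat1 domain was 3.51-fold wider than the Malat1 domain and had a 4.17-fold higher summed RNAPII score, but per 250 bp the scores were 266 and 224, a ratio of 1.19. The leading NELF-A peak was the other way round, 188 on Neat1 and 259 on Malat1. By score per 250 bp the gap was wider: the Malat1 peak, with 32.4, ranked 20, and the Neat1 peak, with 17.1, ranked 246. For NELF-B the ranks per 250 bp were 33 on Malat1, for the inner of its 2 touching peaks alone, and 127 on Neat1. For DRIP, Neat1 led with rank 50 against 102. Without replicate lists, no error can be put on these ratios. Neat1 alone held 0.920% of the summed score of the RNAPII list on 0.308% of its covered length. For DRIP it held 0.235% of the score on 0.182% of the length, and for NELF-A 0.0808% of the score on 0.0688% of the length.

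**Figure D2:**
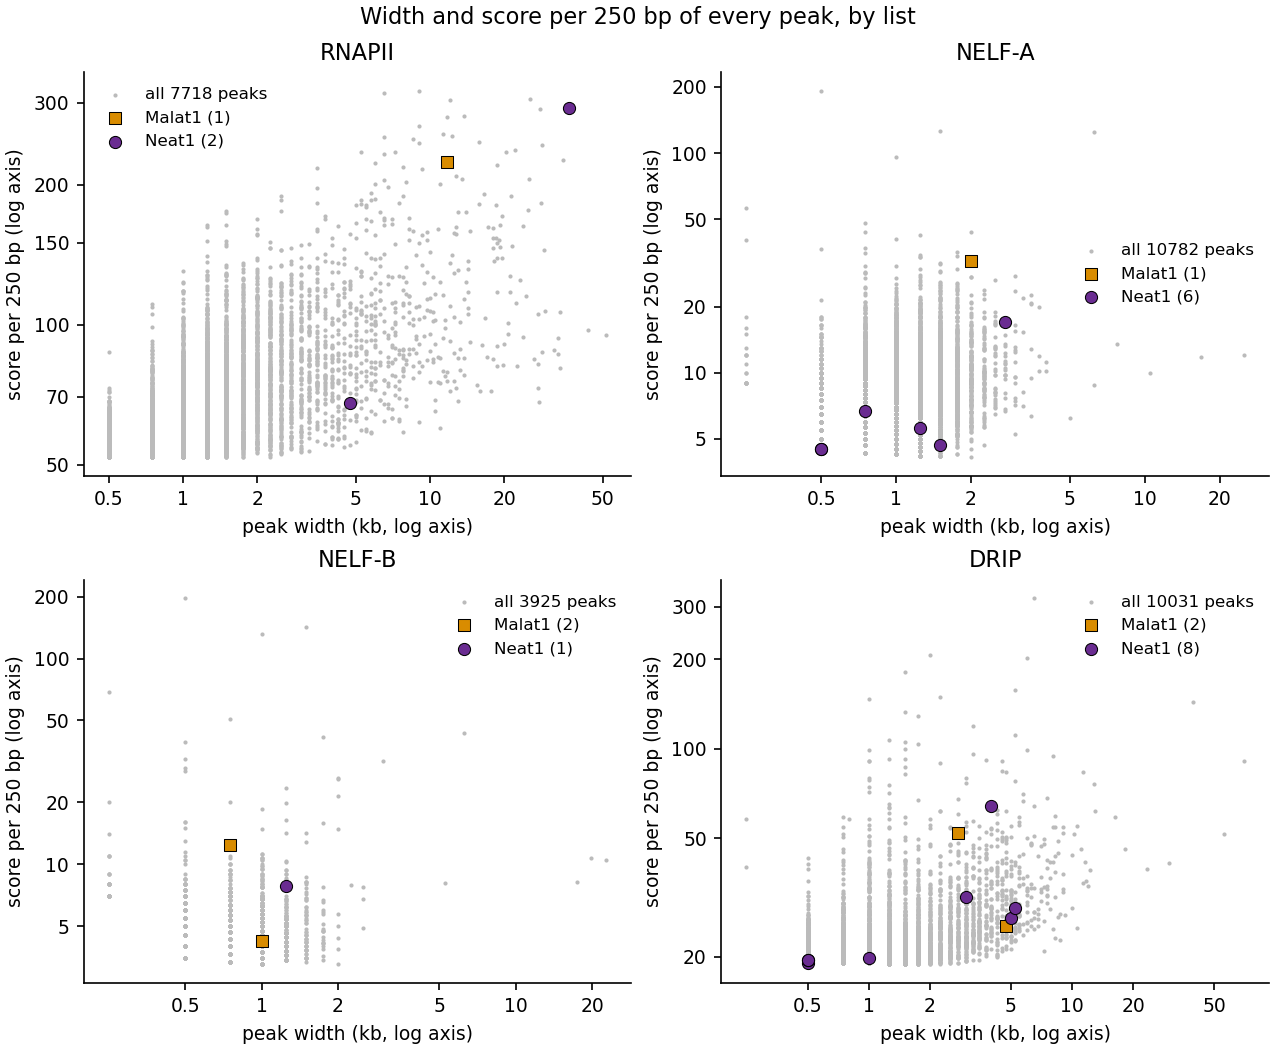
Width in kb (x, log axis) against the authors' score per 250 bp (y, log axis) for every peak of each list in grey, with Malat1 peaks as squares and Neat1 peaks as circles. The wide Neat1 RNAPII peak (292 per 250 bp) and the Malat1 NELF-A peak (32.4) lie near the upper edge for their width, while the 5 lesser NELF-A peaks of Neat1 reach at most 6.67.

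Both loci were next placed among all 419 RNAPII domains of 5 kb or more, in which touching RNAPII peaks were joined. These values describe the loci, since the domains come from the same list as the rule. By width Neat1 was at place 5 and Malat1 at place 116. By score per 250 bp Neat1 was at place 9 and Malat1 at place 22, against a median of 98.5. NELF-A reached 259 on Malat1, place 10 among the 321 domains with a NELF-A peak centred in them, and 188 on Neat1, place 20, against a median of 75. For the leading NELF-B peak as listed, with the touching Malat1 peaks not joined, Neat1 was at place 34 and Malat1 at place 39 of 248. All 3 other targets were present on both loci, as they were in 53.2% of the domains and 76.7% of those of 20 kb or more.

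The top 1% of peaks by score per 250 bp was reached in 3 lists on Malat1 (RNAPII, NELF-A and NELF-B) and in 2 on Neat1 (RNAPII and DRIP). Of the 419 domains, 5 (1.19%) reached it in 3 or more lists and 35 (8.35%) in 2 or more. The count hangs on the cut: the leading DRIP peak of Malat1, at 1.02%, just missed it. It also hangs on the split of NELF-B on Malat1. The inner of the touching peaks, at 0.841%, reached the cut, and the other, at 28.8%, did not. Joined, they were not ranked per 250 bp. The loci were chosen with their scores known, so these shares only describe them.

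DRIP cover was above the median at both loci without being extreme. It was lower than on Malat1 in 347 of the 419 domains (82.8%) and lower than on Neat1 in 300 (71.6%), with a median of 29.2%. Among the 43 domains of 20 kb or more, 29 (67.4%) had less DRIP cover than Neat1. The longest stretch without DRIP was 7250 bp on Neat1, against a median of 9500 bp in those 43 domains. On Malat1 it was 2500 bp, against a median of 5750 bp in 74 domains within 20% of its width.

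NELF-A peaks were numerous on Neat1. Its 6 listed peaks are the highest count among the 419 domains, shared by 3 of them, where the median is 1. With touching peaks joined Neat1 had 5, at place 2. NELF-A was centred in the outer 20% at both ends of the Neat1 domain, a feature of 5.01% of all domains and 14% of those of 20 kb or more. On Malat1 it was found at the upstream end alone. The downstream NELF-A peaks of Neat1 are weak, and both of those in the outer 20% lie on the low RNAPII peak.

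The leading NELF-A peak was centred 4625 bp from the upstream end of the Neat1 domain, or 11.2% of its width, and 1000 bp from that of Malat1, or 8.51%. In 90.7% of the 321 domains it lay within 25% of an end. It lay nearer to an end than on Neat1 in 177 of them and nearer than on Malat1 in 124. Among domains of 20 kb or more the median was 3.33% and 35 of 39 had a lower value than Neat1. The Neat1 RNAPII domain thus ran on for 3250 bp upstream of its leading NELF-A peak, where the Malat1 domain ended with NELF-A. Leading NELF-A and NELF-B peaks overlapped on both loci, as in 95.5% of the domains that have both. Leading NELF-A and DRIP peaks also overlapped on both, as in 59.5% of the domains, and in 41.7% of those of 20 kb or more.

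DRIP was spread over both sides of the Neat1 domain. Split at the midpoint, it covered 46.1% of the NELF-A side and 49.7% of the far side. With the outer 25% of each end in place of the sides the order turned, to 48.5% and 44.2%, so the sides of Neat1 cannot be ranked. Within the 36500 bp peak alone, DRIP covered 43.8% of the NELF-A side and 64.4% of the far side. On Malat1 the NELF-A side had more, 70.2% against 57.4%, and also by the outer 25%, with 48.9% against 14.9%. Of 291 domains with NELF-A near an end, 65.3% had more DRIP on the NELF-A side, 15.1% more on the far side and 19.6% equal cover. Equal cover includes domains without any DRIP peak. Among the domains of 20 kb or more with NELF-A near an end, the first share was 76.9% and the second 15.4%.

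**Figure D3:**
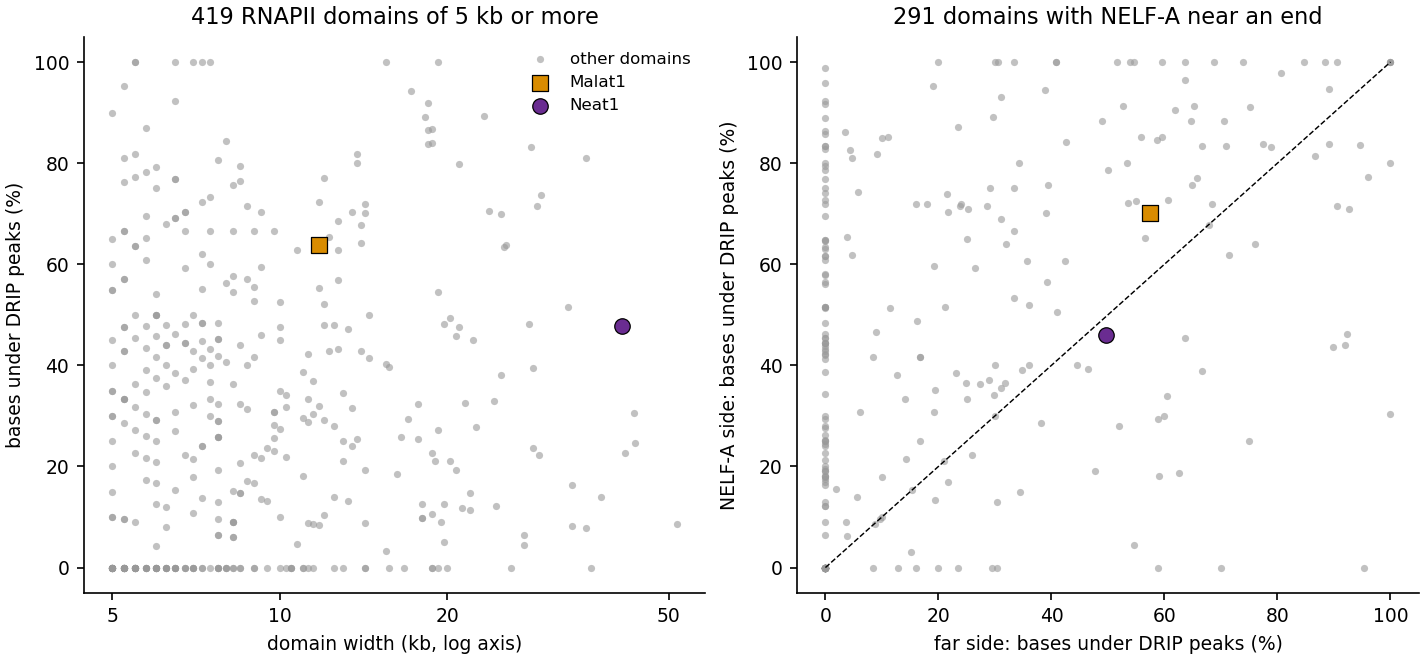
Left, domain width (x, kb, log axis) against the percent of its bases under DRIP peaks (y) for 419 RNAPII domains. Right, DRIP cover of the far side (x, %) against the NELF-A side (y, %) for 291 domains with NELF-A near an end, with a dashed line of equality. Neat1 (circle; 47.9% in all, 46.1% and 49.7% by side) lies close to the line and Malat1 (square; 63.8% in all, 70.2% and 57.4%) above it.

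In 20 equal steps from the NELF-A end, the mean DRIP cover of those 291 domains was highest at step 4, with 52.1%, and fell by degrees to 13.8% at step 20. Neat1 did not follow a single slope: its cover was 100% at step 3, 0 at steps 5 to 7, and again 100% at steps 9, 12, 13, 16 and 17. On Malat1 cover was 0 at steps 1 and 2, 100% at steps 4 to 7 and at steps 9 to 15, and 0 from step 17. The mean smooths over domains, whereas a single domain has a stepwise course by construction.

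**Figure D4:**
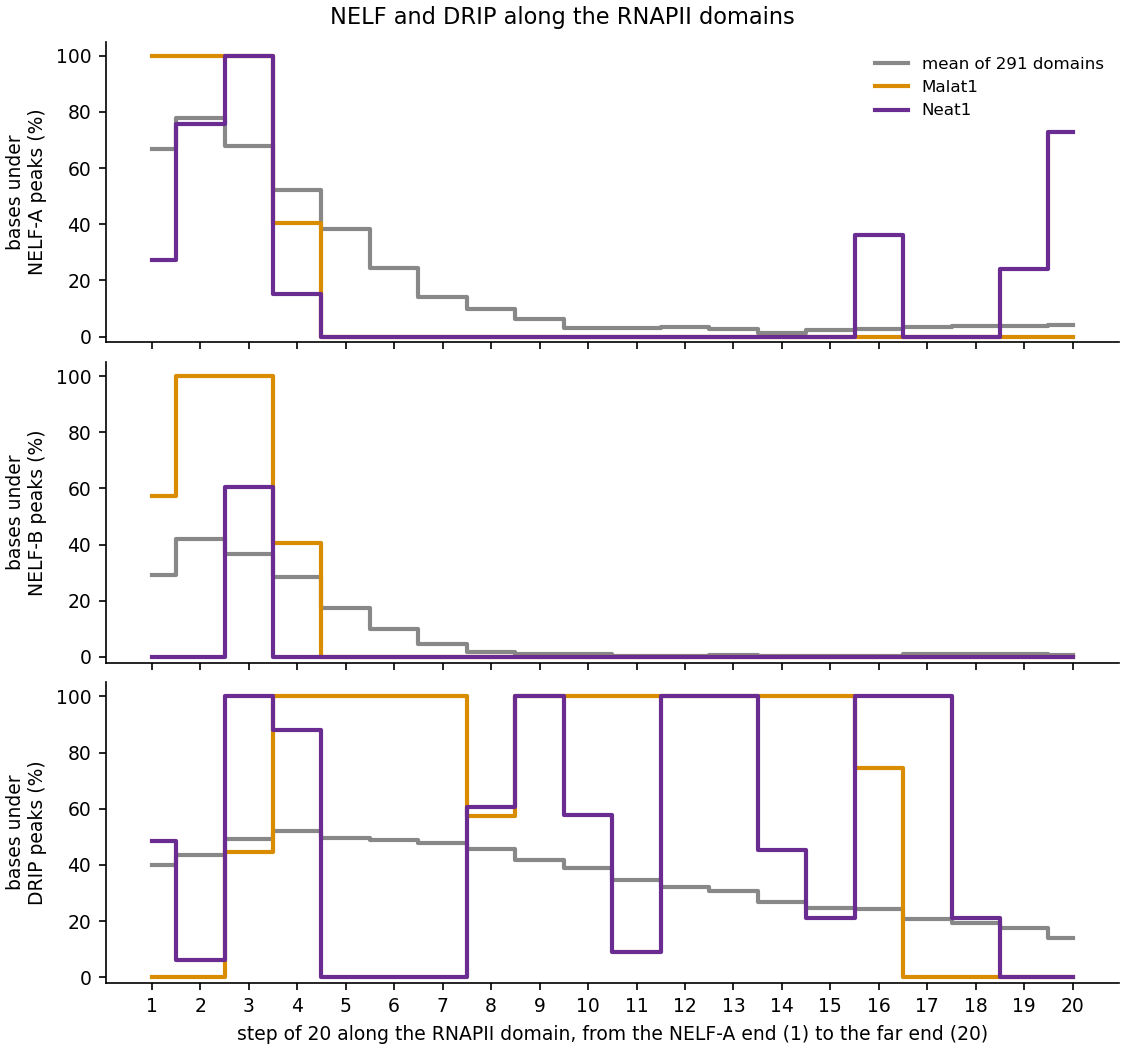
Percent of bases under NELF-A, NELF-B and DRIP peaks (y) in 20 equal steps along the RNAPII domain (x) from the NELF-A end to the far end, for Malat1, for Neat1 and as the mean of 291 domains. NELF-B is confined to the first 4 steps on both loci; NELF-A on Neat1 comes back at step 16 with 36.4%, at step 19 with 24.3% and at step 20 with 72.7%.

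Among the 10 RNAPII domains with the highest summed score Neat1 came first, with 43948. The other 9 were 20250 to 51750 bp wide. In order of score, the next 5 were chr12:40922751-40950750, chr8:86719751-86755250, chr1:192985501-193011000, chr7:19867751-19896250 and chr2:51893251-51915250. The last 4 were chr6:135312501-135337750, chr3:88279501-88307750, chr11:49607251-49659000 and chr13:5858751-5879000. All 9 had DRIP, 8 had NELF-A and 6 had NELF-B. Their leading NELF-A scores ran from 21 to 177, below the 188 of Neat1, and NELF-A lay 0.990% to 14.2% of the width from an end. DRIP covered 8.70% to 83.2% of them, less than on Neat1 in 4. By midpoint split, the NELF-A side had the higher DRIP cover in all 8 with NELF-A and the lower one on Neat1. By the outer 25% Neat1 had 48.5% on the NELF-A side against 44.2%, and the other 8 were not measured that way. The domain next in score, on chromosome 12, had a leading NELF-A score of 177, a NELF-B score of 46 and a DRIP cover of 48.2%, with 60.7% on the NELF-A side and 35.7% on the far side.

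The windows end close to peaks at both edges of Neat1. The low RNAPII peak of Neat1, with a score of 1288, begins at 5809501, next to the window's edge at 5809500, and touches the wide peak. At the upstream edge, the DRIP peak from 5849251 to 5850250 with a score of 79 is the last inside. A DRIP peak from 5851001 to 5852500 with a score of 134, the first outside, begins 1 base past the window and 250 bp beyond the RNAPII domain. A window 2 kb wider would add it and a DRIP peak from 5852501 to 5853500 with a score of 83, for 10 DRIP peaks in place of 8. On the low-coordinate side the nearest peak of any list outside is a DRIP peak that ends at 5775000, 17500 bp from the Malat1 RNAPII peak.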

How the data were processed

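ChIP-seq and DRIP-seq were made from primary mouse mammary epithelial cells. Libraries had 15 PCR cycles for RNAPII and DRIP and 18 for NELF, per the labels' protocols. Reads were aligned with BWA to mm9, per the submitters' processing notes; the caller of the peaks, the threshold and the input control are each not given in the sources used here. The authors deposited 1 list per target with a score per peak, whose unit is not stated. The score was ranked within its list, ties sharing the best rank. Peaks overlapped by 1 bp or more; touching RNAPII peaks were joined, with summed scores, into domains. Cover is the share of a domain's bases under peaks. The functions were tested on simulated peaks (Python 3.11.15). The members and lists were chosen with earlier results of these data known. All peaks of both windows are named, with the other domains among the 10 highest by summed score. Paraspeckle protein genes were planned but not analysed here, since coordinates are not converted between builds. With 1 list per target, no p-value was computed.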

Additional observations from a re-analysis of the deposited data

How the results depend on the processing

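No paired analysis was possible because each target has 1 list, and for the same reason none could be left out. Of 94 alternative values for 32 results, 72 stayed within the 95% Wilson interval (counts: within 1.5 times; side differences: same sign), 21 moved beyond it and 1 changed sign. Intervals treat 250 bp bins, domains or peaks as independent and cover counting error alone. A rank or the place of a peak is not such a count, so there the interval serves only as a tolerance. Several of the 72 values could not change. Malat1 has a single RNAPII and a single NELF-A peak. Keeping its highest-score RNAPII peak alone or joining touching NELF-A peaks therefore returned the same values. The tally is thus no measure of robustness. Joining touching peaks gave 1 NELF-B peak on Malat1, 1 RNAPII and 5 DRIP peaks on Neat1, and rank 33 for NELF-B on Malat1. The upper 50% of each list by score left 3 NELF-A and 5 DRIP peaks on Neat1. Ranked by score per 250 bp, the leading peaks of Malat1 were at 23 (RNAPII), 33 (NELF-B) and 102 (DRIP), and those of Neat1 at 246 (NELF-A), 127 (NELF-B) and 50 (DRIP). With peaks set to 500 bp, which by construction lowers cover, NELF-A covered 4.26% and DRIP 8.51% of Malat1, and NELF-A 7.27%, NELF-B 1.21% and DRIP 9.70% of Neat1. By the outer 25%, DRIP covered 48.9% of the NELF-A side and 14.9% of the far side of Malat1, and the difference between the sides of Neat1 changed from -3.64 to 4.25 percentage points; the cause was not tested. With the highest-score RNAPII peak alone, chosen after seeing the data, DRIP covered 64.4% of the far side of Neat1. Among RNAPII peaks as listed, also chosen after, 75.8% had less DRIP than Neat1.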

Other observations

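RNAPII peaks in the surroundings of both loci scored lower than those on the loci. Their number was not compared with the rest of the chromosome. In the 100 kb on the low-coordinate side of the Malat1 window there were 3 RNAPII peaks, with scores up to 437, and in the 100 kb upstream of the Neat1 window 1, with 402. NELF-A had 4 peaks on each side, with scores up to 70 and 39. NELF-B had 1 on the low side, with 11, and none on the high side. DRIP had 15 peaks on the low side, with scores up to 261, and 3 on the high side, with up to 134.

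The nearest site with all 4 targets lay 20750 bp from the Malat1 domain. RNAPII and NELF-A had peaks with identical ends there, from 5770751 to 5771750, with scores of 252 and 51, and NELF-B had a peak from 5771001 to 5771750 with 11. The DRIP peak from 5770251 to 5772750, with 201, covered them all and was the widest of 9 DRIP peaks between 5752751 and 5775000. RNAPII, NELF-A and NELF-B each had 1 peak in that stretch.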
